A study of Mus musculus with 4 samples.

Results

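A set of 2827 stretches of open chromatin in or within 1 kb of genes was detected in naive CD4 T cells and not in DN3 thymocytes. They were chosen by whether a peak was called: after the peaks of 4 libraries were merged wherever they shared at least 1 bp, a region was kept when both naive libraries had a peak in it, neither DN3 library had one, and it overlapped a RefSeq protein-coding gene body extended by 1 kb at both ends. They are 4.85% of the 58323 merged regions in or at genes, and 9.38% of the 30154 such regions called in both naive libraries. They are called naive-restricted regions here, and the presence or absence of a peak in each library is what selected them, so it is given as a description. All 90270 merged regions, on chromosomes 1 to 19 and X, included 4613 with this pattern of calls, of which 61.3% (Wilson 95% interval 59.9 to 62.7) were in or at a gene.

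The assay was ATAC-seq, in which the Tn5 transposase cuts and tags accessible DNA. There was 1 library for each of 4 groups of untreated primary mouse cells. The naive CD4 T cells were taken from spleen with a magnetic bead kit, from Scd1 knockout mice and from littermate controls. The DN3 thymocytes were Lin-CD4-CD8-CD44-CD25+ cells sorted from thymus after bead depletion, also from Scd1 knockout mice and from littermate controls. Scd1 encodes a stearoyl-CoA desaturase, an enzyme that makes monounsaturated fatty acids. The titles mark the control animals HZ, which the labels do not explain, and the labels used here give no age, no number of animals per library and no account of which part of Scd1 was deleted. With 1 library per group there is no replicate spread, so no p-value is given. Each cell type came from 1 organ, so cell type and organ cannot be told apart.

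DN3 cells are immature thymocytes that rearrange the T cell receptor beta gene and receive signals from Notch and, after that rearrangement, from the pre-T cell receptor. Naive CD4 T cells have completed selection, moved to the blood and lymphoid organs and remained unactivated, and they are kept resting and alive by interleukin-7, contact with self peptide and transcription factors that hold back activation. Most promoters of housekeeping genes are rich in CpG dinucleotides and open in all cell types, whereas open sites away from promoters, many of them enhancers, differ most between cell types. Peaks of an assay like this one mark where DNA was accessible and do not measure transcription.

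Of the 2827 naive-restricted regions, 41 lay over a transcript start of the promoter table used here, and these gave 44 starts of 41 genes. Only 17274 of the 21631 protein-coding genes had a start in that table, so 41 is a lower limit. The promoter windows at such starts held few CpG dinucleotides. The 300-base windows run from 250 bases before the start to 50 bases after it, are taken from RefSeq on GRCm38.p6 (mm10), and are written 5′ to 3′ on the strand of the gene with each CG in capitals. They are shown because their sequence was not used to choose them, and the genes were picked after their values were seen. Cnr2 encodes the cannabinoid receptor CB2 and lies on the plus strand, chr4:135911430-135911729. Dennd2d, on the plus strand at chr3:106485790-106486089, encodes a DENN domain protein, and Tnfrsf4, on the plus strand at chr4:156013445-156013744, encodes the costimulatory receptor OX40. Il2, the gene of interleukin-2, is on the minus strand at chr3:37125905-37126204, and Gimap4, a GTPase gene of lymphocytes, is on the plus strand at chr6:48684328-48684627. Tank, a signalling adaptor gene on the plus strand, is shown at the start inside a naive-restricted region, chr2:61578307-61578606, and at another start that lay in a region called in all 4 libraries, chr2:61592847-61593146.
Cnr2: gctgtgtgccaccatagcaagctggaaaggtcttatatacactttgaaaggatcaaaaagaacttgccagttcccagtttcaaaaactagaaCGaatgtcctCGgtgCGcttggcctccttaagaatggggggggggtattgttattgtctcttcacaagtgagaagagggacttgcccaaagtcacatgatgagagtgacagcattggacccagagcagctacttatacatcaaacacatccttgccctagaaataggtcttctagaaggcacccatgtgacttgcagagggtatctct
Dennd2d: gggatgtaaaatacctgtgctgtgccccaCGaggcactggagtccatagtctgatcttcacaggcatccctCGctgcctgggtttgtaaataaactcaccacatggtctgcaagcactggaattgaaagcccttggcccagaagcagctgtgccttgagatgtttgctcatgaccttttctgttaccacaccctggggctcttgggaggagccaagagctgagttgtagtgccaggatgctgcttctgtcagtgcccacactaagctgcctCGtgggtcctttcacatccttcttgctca
Tnfrsf4: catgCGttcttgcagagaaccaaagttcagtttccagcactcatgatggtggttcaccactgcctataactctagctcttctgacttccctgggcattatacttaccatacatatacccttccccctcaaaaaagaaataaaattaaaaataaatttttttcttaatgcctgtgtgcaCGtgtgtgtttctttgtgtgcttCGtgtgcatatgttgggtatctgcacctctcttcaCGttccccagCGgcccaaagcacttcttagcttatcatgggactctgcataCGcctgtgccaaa
Il2: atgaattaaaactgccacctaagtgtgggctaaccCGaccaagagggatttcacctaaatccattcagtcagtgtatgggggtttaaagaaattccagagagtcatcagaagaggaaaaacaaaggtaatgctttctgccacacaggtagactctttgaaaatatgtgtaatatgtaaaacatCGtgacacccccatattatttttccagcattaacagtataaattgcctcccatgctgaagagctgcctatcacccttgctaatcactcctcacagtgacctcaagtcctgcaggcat
Gimap4: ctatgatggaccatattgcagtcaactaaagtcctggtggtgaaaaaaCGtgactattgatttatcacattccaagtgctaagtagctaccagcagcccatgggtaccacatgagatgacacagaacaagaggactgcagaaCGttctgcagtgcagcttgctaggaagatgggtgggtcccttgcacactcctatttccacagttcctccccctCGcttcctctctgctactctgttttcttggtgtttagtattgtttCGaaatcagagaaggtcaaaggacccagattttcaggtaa
Tank, naive-restricted start: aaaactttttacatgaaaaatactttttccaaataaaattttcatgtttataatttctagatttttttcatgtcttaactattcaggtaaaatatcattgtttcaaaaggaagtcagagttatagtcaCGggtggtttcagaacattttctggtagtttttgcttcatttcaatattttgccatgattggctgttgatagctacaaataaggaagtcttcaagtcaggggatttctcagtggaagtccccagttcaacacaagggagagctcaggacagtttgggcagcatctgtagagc
Tank, start called in all 4 libraries: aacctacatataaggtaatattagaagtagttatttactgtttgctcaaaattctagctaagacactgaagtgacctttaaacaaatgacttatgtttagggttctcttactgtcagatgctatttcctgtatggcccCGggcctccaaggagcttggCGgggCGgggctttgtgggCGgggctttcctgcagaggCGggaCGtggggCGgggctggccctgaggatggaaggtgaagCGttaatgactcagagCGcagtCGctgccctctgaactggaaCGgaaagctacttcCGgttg

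The windows of Cnr2 and Dennd2d held 3 CpG each, that of Tnfrsf4 6, that of Il2 2 and that of Gimap4 4. Tank had 1 CpG at the naive-restricted start and 12 at the other start. Over all 44 starts in a naive-restricted region the median was 4.5 CpG per window (quartiles 3 and 6.25), against 17 (quartiles 9 and 27) at 1115 starts in DN3-restricted regions, those with a peak in both DN3 and no naive library, and 22 (quartiles 15 and 30) at 11266 starts in regions called in all 4. The share of windows with fewer than 10 CpG was 81.8% at naive-restricted starts, 26.5% at DN3-restricted starts and 11.6% at starts called in all 4. Starts in no region of the 4 lists were also poor in CpG, with a median of 3 and 88% under 10. The median GC content was 50.2% at naive-restricted starts and 62% in each of the other called sets. Windows of 1 gene overlap where its starts lie close together, and 17274 of the 21631 protein-coding genes had a window in the table, none of them on chromosome 18.

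**Figure D1:**
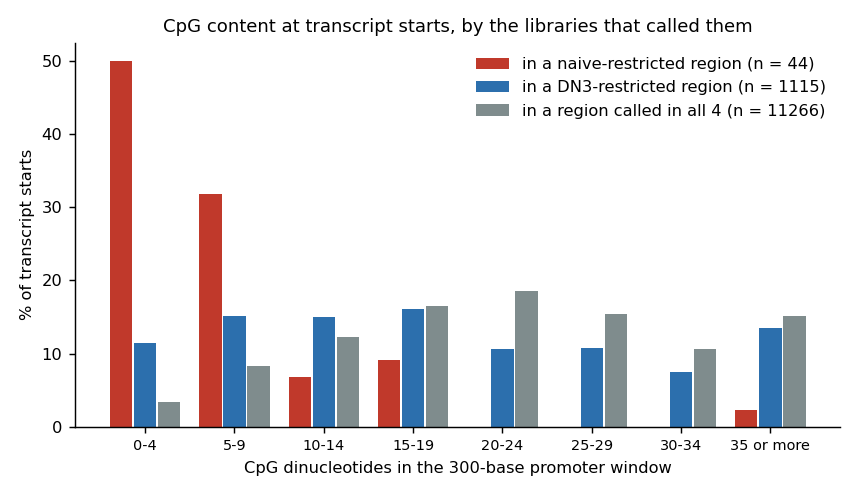
Number of CpG dinucleotides in the 300-base promoter window (x axis) against the percentage of transcript starts (y axis), for starts in naive-restricted, DN3-restricted and shared regions. The lowest 2 classes, 0 to 9 CpG, hold 36 of the 44 naive-restricted starts, and the other 2 sets spread over higher classes.

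Of the 12 short motifs searched on both strands of these windows, CAGCTG, the core bound by E proteins, was in 14 of 44 naive-restricted starts (31.8%, interval 20 to 46.6), 19.8% of DN3-restricted starts and 15.7% of all 21045 windows. The AP-1 motif TGANTCA was in 15.9% (7.93 to 29.4), against 5.56% at DN3-restricted starts and 7.04% of all windows. The interferon-factor motif AANNGAAA was in 31.8% (20 to 46.6) of naive-restricted starts and 21.6% of all windows. The RUNX motif TGTGGTT and the NF-kB motif GGGANTTTC had 0 matches in the 44 windows, with an interval up to 8.03%, and their shares over all windows were 4.74% and 1.09%. For these 2, for the interferon-factor motif and for the other 7 motifs, the share over all windows lay inside the interval of the naive-restricted starts. The ETS motif CGGAAGT was in 4.55% of naive-restricted starts and 8.48% of all windows, and the KLF motif CACACCC in 11.4% and 8.09%. With 44 windows no difference from all windows was detectable for these 10 motifs. The STAT motif TTCNNNGAA was in 11.4% and 7.76%, and the FOXO motif TGTTTAC in 6.82% and 3.03%. The TCF/LEF motif ATCAAAG was in 2.27% and 3.25%. The letters AGATAAG, bound by Gata3, were in 2.27% and 2.63%. A part of the CTCF motif, AGGGGGC, was in 11.4% and 13.0%. The interferon-factor motif was in 16.6% of DN3-restricted starts and 16.3% of starts called in all 4, both under its interval. The STAT motif was in 4.66% of DN3-restricted starts, under its interval (4.95 to 24.0), and 6.45% of starts called in all 4, inside it. The FOXO motif was in 2.42% of DN3-restricted starts, inside its interval (2.35 to 18.2), and 2.29% of starts called in all 4, under it. The E protein, AP-1 and STAT motifs each read the same on both strands. The intervals make no allowance for the search of 12 motifs, which bears on the E protein and AP-1 shares too. Median GC content was 50.2% at naive-restricted starts and 56.7% over all windows. The part of base composition in the motif shares was not tested. A match says that the letters are present and not that a factor was bound.

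Of the 41 genes with a start in a naive-restricted region, 20 had starts covered by a peak of both naive libraries and of neither DN3 library. Another start was called in all 4 libraries at 13, Cnr2, Dennd2d and Tank among them, and only that of Tank is shown above. The Cnr2 region, chr4:135911256-135912097, had a −log10 q of 146.0 in the naive knockout and 168.4 in the naive control. The −log10 q, given by the authors, says how far the fragments at a summit exceed the local background of that library. It ranks peaks within a library and grows with depth, so the difference between the genotypes is not read as a change. The region over the start of Tnfrsf4 had 75.5 in the knockout and 99.4 in the control, with 127 and 170 fragments at the summit, and the nearest DN3 peak was 7109 bp away. The region at Il2 had 35.1 in the knockout and 40.1 in the control, and lay 1326 bp from the nearest DN3 peak. Il2 and Tnfrsf4 are best known for their expression after activation. At Gimap4 the values were 22.5 and 14.8, and the nearest DN3 peak was 302 bp away. Phf11b and Ifi214, members of interferon-induced gene families, also had a start covered by both naive libraries and by no DN3 peak. At Itgam, the gene of the integrin CD11b that marks myeloid cells, a naive-restricted region over the start had 33.4 in the knockout and 42.3 in the control.

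Naive-restricted regions were kept only in or within 1 kb of a gene, so lying at genes was set by the rule. A gene body was touched by 98.1% of them, 97.1% of DN3-restricted regions and 97.6% of regions called in all 4 libraries, in or at genes. Most naive-restricted regions lay away from gene ends. Within 1 kb of an annotated gene end were 187 of 2827, or 6.61% (5.76 to 7.59), against 15.9% of 15444 DN3-restricted and 45.1% of 26265 regions called in all 4 libraries in or at genes. Over a transcript start of the promoter table lay 1.45% of naive-restricted, 6.6% of DN3-restricted and 34.4% of shared regions. Genes without a start in that table add nothing to these shares. Among the 2189 naive-restricted regions that lay inside genes of known strand, 28.2%, 27.6%, 23.8% and 20.4% fell in the first to the fourth of 4 equal parts of the gene from its start. Shared regions had 49.9% in the first and 16.0% in the fourth, and DN3-restricted regions had 26.9% and 25.7%. The share of all regions of a kind that were in or at a gene was 61.3% for naive-restricted, 60.5% for DN3-restricted and 70.2% for shared ones. Over all merged regions it was 64.6%. Exons and introns were not annotated here.

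**Figure D2:**
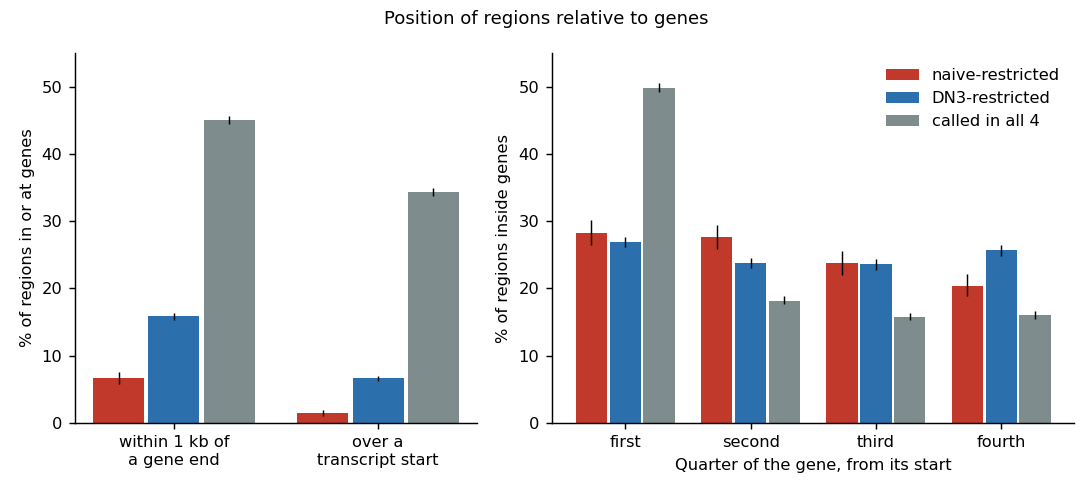
Percentage of regions (y axis) within 1 kb of a gene end or over a transcript start (left) and in each of 4 equal parts of the gene from its start (right), for naive-restricted, DN3-restricted and shared regions. Bars show the percentage and lines the Wilson 95% interval. The naive-restricted bars are the lowest at gene ends and starts, at 6.61% and 1.45%, and along the gene they run between 28.2% in the first part and 20.4% in the fourth.

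Distances of these regions to DN3 peaks are given without those of other regions, so no closeness particular to them is read. The gap to the nearest DN3 peak had a median of 3902 bp (quartiles 1641 and 8402 bp), 59.1% had a DN3 peak within 5 kb, and 31 of 2827 had none within 50 kb. At the edge of the rule, regions inside Slc23a3, Tmem154 and Hipk1 missed a DN3 peak by 29, 33 and 43 bp. A region at Gm21992 and Rbm4b shared 6 bp with a DN3 peak, one at Foxo1 24 bp and one at Ptpra 29 bp, and these were left out. The weakest regions kept had a −log10 q of 1.34, at Tacc1, and 1.499, at Alg9, in the weaker of their libraries. In the list of the naive knockout the median −log10 q was 15.4 and the median width 504 bp, against 79.4 and 943 bp for shared regions at genes in the same list. In that of the naive control it was 17.7 and 611 bp, against 97.3 and 1069 bp. The median summit held 40 fragments in the knockout and 51 in the control. These regions were thus weaker and narrower than shared ones in both lists, and 60.7% had a −log10 q of at least 10 in both. The part of depth and of the peak threshold in their absence from the DN3 lists was not tested.

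The genotypes ranked these regions alike. Across the 2775 regions with 1 peak in each naive list, the Spearman rank correlation of −log10 q between knockout and control was 0.882, against 0.979 over shared regions, and the summits lay a median of 31 bp apart, against 15 bp. These are descriptions across regions of 2 libraries, and the rule itself asked for a peak in both. Naive-restricted regions were narrower in the knockout list, with a median width ratio of knockout to control of 0.888. The ratio was 0.947 for shared regions, and the narrowest peak of the whole list was 225 bp in the knockout and 275 bp in the control. Regions at genes called in the naive knockout alone of the 4 libraries numbered 1237, and those in the naive control alone 833. The knockout list was the longer, at 51297 peaks against 46576, and the part of list length in these counts was not tested. No total read count was used here.

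**Figure D3:**
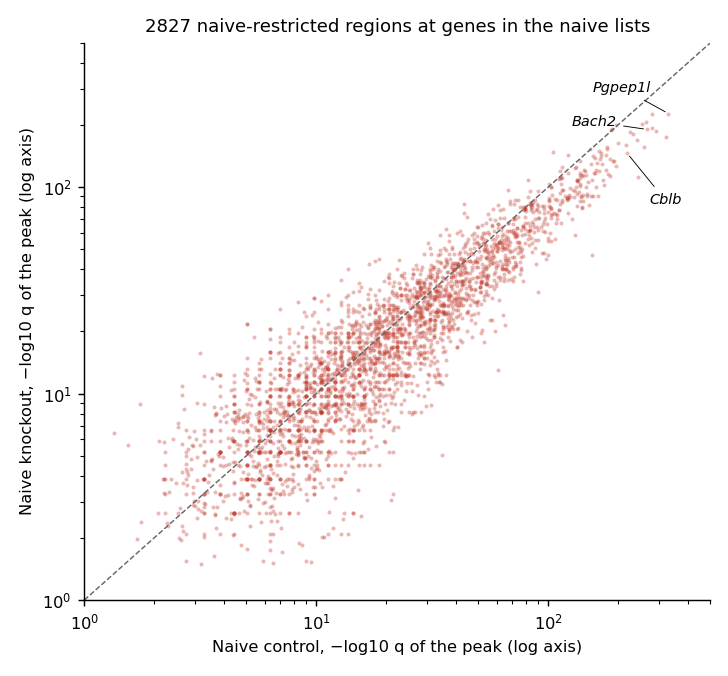
The −log10 q of each naive-restricted region at a gene in the naive knockout list (y axis, log scale) against the naive control list (x axis, log scale), 1 point per region, with the line of equal values. The points lie around the line at low values and mostly below it at high ones, up to Pgpep1l, at 226.8 in the knockout and 329.6 in the control.

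The strongest naive-restricted region lay inside Pgpep1l, chr7:68249641-68251110, with 311 fragments at the summit in the knockout and 458 in the control. Next by rank came regions inside Ptk2, which encodes focal adhesion kinase (−log10 q of 224.8 in the knockout and 279.8 in the control), and Dph5, an enzyme gene of diphthamide synthesis (205.6 and 265.0). The Ptk2 region stood 42401 bp from the nearest DN3 peak, and a region inside Rsu1, a regulator of cell adhesion, stood 90714 bp from it. The other regions among the 15 strongest lay in Nepro, Bach2, Polr1a (the largest subunit of RNA polymerase I), Drosha (the nuclear microRNA processing enzyme), Prex1, Man1a2, Pip4k2a, Inpp4b, Klhl5, Cblb and Ccser2. Cblb encodes a ubiquitin ligase that restrains T cell activation, and its region had 330 fragments in the knockout and 504 in the control. None of the 2827 reached the top 10% of both naive lists. The highest rank was that of Pgpep1l, at percentile 84.9 in the knockout and 86.3 in the control.

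The regions lay at 1769 of 21631 protein-coding genes, or 8.18%. A single region was found at 1250 genes, 2 at 275 and 3 or more at 244. These genes were long, with a median length of 69.7 kb, against 23.1 kb for genes with any region called in both naive libraries. A region called in all 4 libraries also stood at 95.1% of them, against 99.1% of genes with any region called in both naive libraries. The transcript start was open in all 4 libraries at 81.6% of the 1427 of these genes in the promoter table, near the 82.8% over genes with any naive region. A DN3-restricted region stood at 57.5% of the genes with a naive-restricted one, against 37.1% of genes with any naive region. The part of gene length in this difference was not tested.

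Inpp4b, which encodes a phosphatase of inositol lipids, had the most, with 28 naive-restricted regions in 792.0 kb. Of the 42 regions called there in both naive libraries 66.7% were naive-restricted, 12 were called in all 4, and none was DN3-restricted. The strongest, chr8:81558376-81559342, had a −log10 q of 185.5 in the knockout and 224.6 in the control, and the nearest DN3 peak was 55404 bp away. The gene start itself was open in all 4 libraries. Foxp1, a transcription factor gene that keeps naive T cells quiescent, had 18, beside 39 shared and 9 DN3-restricted regions. Bach2, whose product represses effector genes, had 16, beside 25 and 5. Its strongest region, chr4:32334870-32336987, had 190.1 in the knockout and 266.7 in the control and lay 307 bp from a DN3 peak.

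Lef1 and Bcl11b, which encode transcription factors of the T lineage, and Bcl2 also had 10 or more. Lef1, a Wnt pathway factor, had 11 naive-restricted, 8 shared and 0 DN3-restricted regions. At Lef1 the strongest had 46.2 in the knockout and 51.4 in the control. Bcl11b, the T lineage commitment factor, had 10, with 9 shared and 4 DN3-restricted ones. At Bcl11b, 6 of the 10 stood in 1 run, each at most 10 kb from the next, over 31.6 kb, together with 1 shared and 2 DN3-restricted regions. Bcl2, the survival gene, had 10 naive-restricted, 17 shared and 3 DN3-restricted regions, and its strongest had 61.7 in the knockout and 76.3 in the control.

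**Figure D4:**
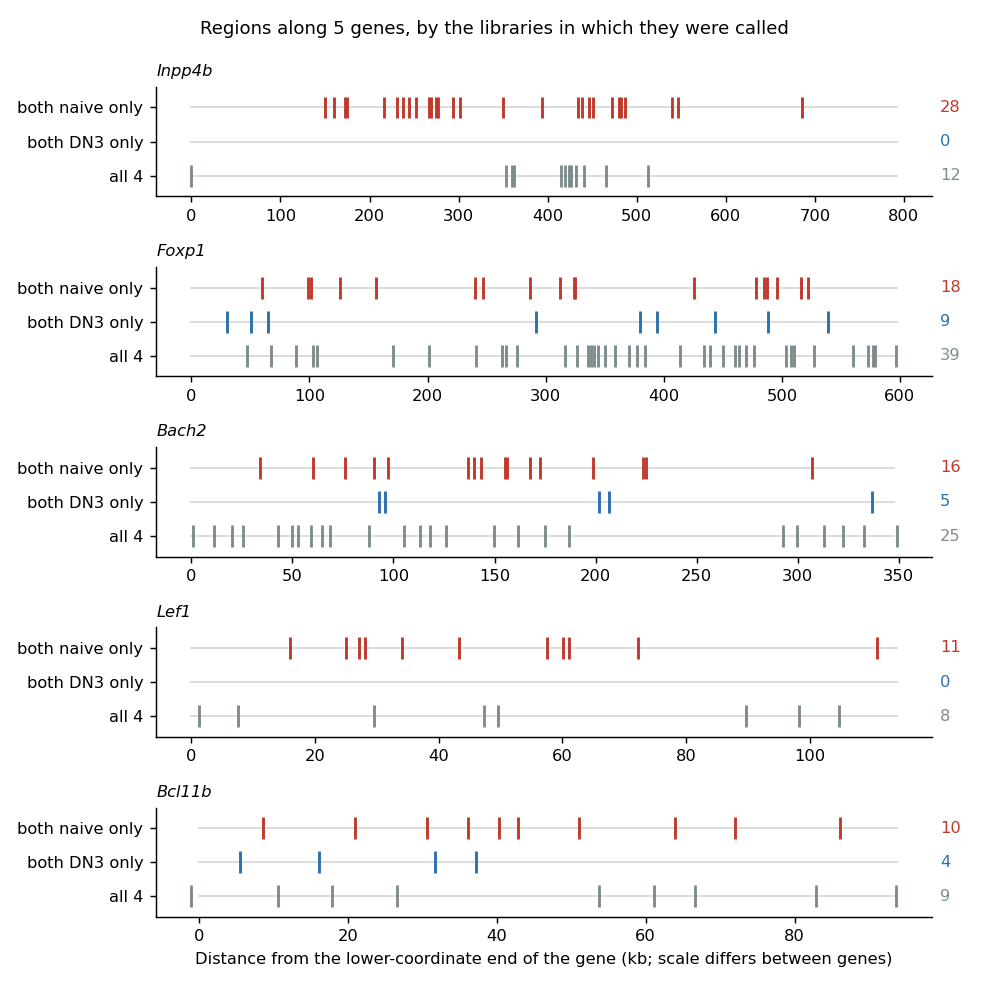
Position of each region along Inpp4b, Foxp1, Bach2, Lef1 and Bcl11b, in kb from the lower-coordinate end of the gene (x axis, scale differs between genes), by the libraries that called it (rows). Numbers at the right count the regions, and the naive-restricted ones number 28, 18, 16, 11 and 10 from top to bottom.

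Among the other genes of the 15 with the most naive-restricted regions, the counts ran from 8 to 11. In all 11 genes had 8, and 5 of them were taken into the 15 by the summed −log10 q of their regions, taking the lower of the 2 naive values of each. Sgms1, a sphingomyelin synthase gene, had 11, with 23 shared and 2 DN3-restricted regions. Akap13, a kinase anchor gene, had 11 as well. Asap1, a GTPase-activating protein gene for Arf, and Gramd3 had 9 each. Sntb1 (a syntrophin), Tnrc6b (a gene of microRNA silencing), Chd7 (a chromatin remodeller), Sh3kbp1 (an adaptor of Cbl ligases) and Arhgap15 had 8 each. At Chd7 no region was DN3-restricted and at Arhgap15, which encodes a GTPase-activating protein for Rac, 61.5% of the 13 naive-called regions were naive-restricted. Over all naive-restricted regions 777, or 27.5%, stood within 10 kb of another, in 340 runs. The same share was not computed for other kinds of region, so no clustering particular to these is read. A run over Ifit1bl1, Ifit1bl2 and Ifit3b, genes of the interferon response, held 6 in 27.1 kb with no shared or DN3-restricted region among them. Genes of this family are near-identical in places, so reads there may be assigned uncertainly. Adam19, a metalloprotease gene, likewise had 6 in 23.7 kb with no other kind of region among them. Lef1 had 6 in 28.7 kb and Rapgef6, an exchange factor gene of Rap, 6 in 22.1 kb, each with 1 shared region.

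The lists of genes below were written with earlier results of these data known, so their shares describe the lists and are no independent evidence. Over all genes 9.38% of naive-called regions were naive-restricted. Of 516 genes in the lists, 132 (25.6%) held at least 1, against 8.18% of all protein-coding genes. Only a gene with a region called in both naive libraries can hold one, and 13990 of the 21631 protein-coding genes had such a region. The part of this, and of gene length, in the difference was not tested. The list of quiescence genes, those that hold T cells at rest, stood highest, with 85 of 246 naive-called regions (34.6%, interval 28.9 to 40.7) and 12 of its 27 genes holding at least 1. Inpp4b, Foxp1 and Bach2 made up 62 of these, and without them the share was 23 of 98, or 23.5% (16.2 to 32.8). Satb1, a chromatin organiser gene of T cells, had 5, the strongest with 116.4 in the knockout and 156.9 in the control. Regions within 1 kb of a gene end were rarely naive-restricted, at 1.54% of 12122, against 14.6% of 18032 away from ends. Away from ends the quiescence share was 38.9% (32.6 to 45.7). The lower limits away from ends were also above 14.6% for T cell receptor signalling (18.2%), T lineage factors (19.3%) and cytokine receptors (18.0%). The same held for survival and death genes (18.3%) and the CD4 and CD8 lineages (15.3%).

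Genes of T cell receptor signalling had 63 naive-restricted of 313 naive-called regions (20.1%, 16.1 to 24.9), at 24 of 40 genes. Cblb had 7, Grap2, an adaptor gene, 6, Ptprc, the gene of CD45, 6, and Prkcq, the gene of protein kinase C theta, 5. At Prkcq the strongest had 92.0 in the knockout and 122.7 in the control. Receptors for cytokines had 26 of 117 (22.2%, 15.6 to 30.6), among them Tgfbr2 with 4 and Il18r1, Il6st and Il6ra with 3 each. Il7r, the interleukin-7 receptor gene, had 1, with 3.67 in the weaker library. The T lineage factors had 49 of 228 (21.5%, 16.7 to 27.3), with Ets1 at 6 and Elf1 at 4 after Lef1 and Bcl11b. Survival and death genes had 19 of 90 (21.1%, 14.0 to 30.6), 10 of them at Bcl2 and 2 each at Cflar, Bcl2l1 and Fas.

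Genes of the CD4 and CD8 lineages had 13 of 65 (20%, 12.1 to 31.3). Tox, a factor of CD4 lineage development, held 8 of these, and Zbtb7b, the gene of ThPOK, held 2, the strongest with 46.6 in the knockout and 77.5 in the control. Cd4 itself had 1, over its higher-coordinate end, with 42.7 in the knockout and 34.6 in the control. No strand was at hand for Cd4, and this region is not among those counted over a start. Costimulatory and inhibitory receptors had 17 of 90 (18.9%, 12.1 to 28.2). Cd28 and Cd226 had 3 each and Cd40lg and Tigit 2 each. T helper factors and cytokines had 18 of 108 (16.7%, 10.8 to 24.8), led by Rora with 5, and there 11 regions were DN3-restricted. Stat5b and Ikzf2 had 3 each, and Prdm1, the gene of Blimp-1, had 1, with 80.2 in the knockout and 78.2 in the control.

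Homing and adhesion genes had 9 of 90 (10%, 5.35 to 17.9), near the share over all genes. Itga6 and Ccr6 had 2 each and Cxcr5 and Itgae 1 each. The region over the higher-coordinate end of Cxcr5, a chemokine receptor gene, had 83.3 in the knockout and 83.1 in the control. Cxcr5 had no strand at hand either, and its region is not counted over a start. The DN3, Notch and pre-T cell receptor list had 11 of 115 (9.57%, 5.43 to 16.3), of which 8 stood at Maml2, a coactivator of Notch, and 1 each at Notch1, Tal1 and Dtx1. Interferon response genes had 4 of 48 (8.33%, 3.29 to 19.6), at Gbp7, Ifit2 and Ifit3. The NFAT, NF-kB and AP-1 list had 6 of 94 (6.38%, 2.96 to 13.2), 2 of them at Nfkb1. The Gimap GTPases had 1 of 15, at Gimap4.

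Genes of lipid metabolism had shares under 9.38% in all 3 lists, and each interval includes 9.38%. Fatty acid synthesis and desaturation genes had 6 of 79 naive-called regions (7.59%, 3.53 to 15.6), at 4 of 31 genes. Elovl6 and Elovl7, both fatty acid elongases, had 2 each, and Elovl5 had 1. Mlxipl, the gene of the glucose-responsive factor ChREBP, had 1, with 125.2 in the knockout and 114.8 in the control. Scd1, Scd2, Scd3 and Scd4 had none, and of the naive-called regions at Scd1 and Scd2, 1 and 2 in number, all were called in all 4 libraries. Fatty acid oxidation and storage genes had 4 of 56 (7.14%, 2.81 to 17.0), at Ppargc1b, Acadm and Cpt1a. Cholesterol genes had 1 of 43 (2.33%, 0.412 to 12.1), at Abcg1, which exports cholesterol. Housekeeping genes had 1 of 34 (2.94%), at Hprt. All of these intervals are for counting error only.

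**Figure D5:**
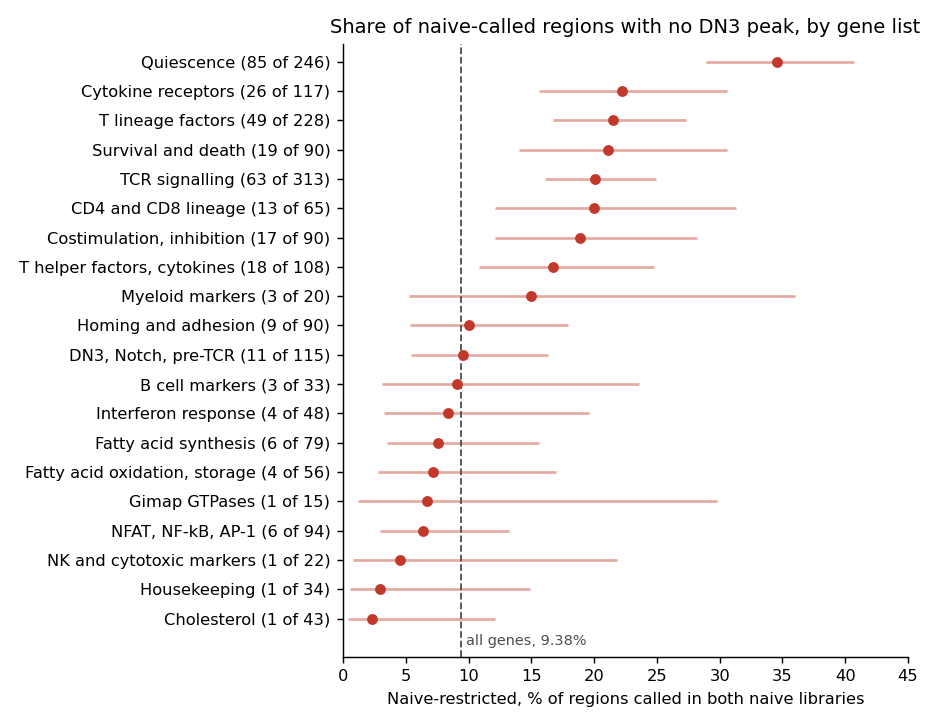
Percentage of regions called in both naive libraries that were naive-restricted (x axis) for each gene list (rows, with the counts), with Wilson 95% intervals and a dashed line at the 9.38% of all genes. The quiescence list is highest, at 34.6%, and cholesterol genes are lowest, at 2.33%.

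Markers of other cells were looked at because bead-isolated spleen cells can hold them. B cell marker genes had 3 naive-restricted of 33 naive-called regions (9.09%), at Btk, Bank1 and Cd22. Ms4a1, the gene of CD20, had no region at a gene end in any of the 4 libraries, Cd79a, Cd79b, Cr2 and Pou2af1 had one in both naive libraries and at least 1 DN3 library, and Cd22 had one in the naive libraries alone. The list as a whole had one at 14 of 22 genes in the naive knockout, 12 in the naive control, 15 in the DN3 knockout and 16 in the DN3 control. Myeloid markers had 3 of 20 (15%, 5.24 to 36.0), at Itgam and Fcgr3, and gene-end regions at 10 of 25 genes in each naive library and 14 in each DN3 library. NK and cytotoxic markers had 1 of 22, at Crtam. Their gene-end regions numbered 10 and 8 of 20 in the naive knockout and control, and 11 and 12 in the DN3 knockout and control. The part of other cells in the naive-restricted regions was not tested. Of the naive CD4 T cell markers all 10, Cd4, Ccr7 and Il7r included, had a gene-end region in all 4 libraries. That count does not tell the cell types apart here. A gene end in these counts is either end of the gene, so they do not say that a start was open. The region over the higher-coordinate end of Cd4 was itself naive-restricted, 1491 bp from the nearest DN3 peak. Of 8 DN3 markers, 5 had a gene-end region in the naive knockout, 4 in the naive control and 8 in each DN3 library, and Ptcra, Rag2 and Dntt had none in either naive library.

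Gene ends held the last group. Besides Tank, Cxcr5 and Tnfrsf4, whose region also overlaps an end of Sdf4, the strongest naive-restricted regions over an annotated end were those of Man1a2, an enzyme gene of glycoprotein trimming, with 168.8 in the knockout and 241.7 in the control, and Btnl2, a butyrophilin-like gene, with 86.1 and 87.6. By chromosome, the share of naive-called regions that were naive-restricted ran from 6.78% on chromosome 7 to 12.7% on chromosome 12.

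The number of naive-restricted regions moved with the lists used. The DN3 lists held 76437 peaks in the knockout and 76814 in the control, against 51297 and 46576 in the naive lists, and a longer list leaves fewer regions uncalled. With each of the 4 lists cut to its strongest 46576 peaks, 5752 regions were naive-restricted and in or at genes, at 3203 genes. With the knockout libraries alone the rule gave 5108 regions at 2851 genes, and with the control libraries alone it gave 4331 regions. When naive peaks were kept to a −log10 q of at least 10 and the DN3 lists left whole, 1716 were.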

How the data were processed

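Accessible chromatin was measured by ATAC-seq in 4 groups of 1 library. Reads were trimmed with Trimmomatic, aligned with BWA to mm10 and peaks called with MACS2, per the submitters' processing notes, which name no version or setting. The authors deposited 1 peak list per library. Each deposited peak has a score, a fold over the local background of its own library, and the −log10 p and −log10 q of its summit. These deposited values are the authors', and served only within the list they belong to. The weakest deposited peak had a q just under the 5% limit. Fragments at a summit were recovered from the fold and −log10 p as whole numbers, within 0.05, for 100% of peaks. No total read count was used, PCR duplicates may be among the fragments, and intervals cover counting error only.

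Peaks on chromosomes 1 to 19 and X were merged where they shared 1 bp, and genes were the 21631 protein-coding genes of RefSeq GRCm38.p6. The merging was tested on simulated data, where all 403 planted regions were recovered. Of 520 symbols in 20 lists, 517 matched. The members and the lists were chosen with earlier results of these data known. The genes named were those with the most members, the strongest members, up to 4 genes per list, the strongest over gene ends, and Scd1, and others named were chosen after their values were seen. Shares have Wilson 95% intervals. Motifs were searched in promoter windows only, since no genome was used here. Alternatives changed the joining of peaks, the threshold, the list length, the libraries and the gene window. Python 3.11.15, pandas 2.3.3, numpy 2.4.6, SciPy 1.17.1 and matplotlib 3.10.9 were used. Some members of the marker lists are not reported here by name.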

Additional observations from a re-analysis of the deposited data

How the results depend on the processing

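No paired analysis was possible because each group had 1 library and the labels give no replicate numbers. Under 11 alternatives the 7 summary values gave 77 recomputed values, of which 54 stayed within the interval of the reported value or within 1.5 times a reported count. With all lists at 46576 peaks, 5752 regions qualified at 3203 genes, 10.3% lay within 1 kb of a gene end, the median width was 751.5 bp and the median of the lower of the 2 ranks was percentile 26.3, against 672 bp, the width of the merged region, and 21.4 under the rule as given. From the control libraries alone 4331 regions qualified, with medians of 547 bp and percentile 18.5. From the knockout libraries alone 5108 qualified at 2851 genes, with 7.65% at gene ends and a median width of 425.5 bp. At a −log10 q of at least 5 in all lists the medians were 712 bp and percentile 25.1, and at 10 they were 790 bp and 33.7. Naive lists at 10 with whole DN3 lists, chosen after seeing the data, gave 1716 regions, 59.2% of such regions at genes, and medians of 753.5 bp and percentile 34.3. Without the 1 kb extension of genes 4.80% lay at gene ends. With 10 kb it was 5.73%, and 70.7% of naive-restricted regions were at genes. The number of genes of the lists with a naive-restricted region, 132 of 516, stayed within 1.5 times under every alternative, as did all 7 values when peaks were joined differently or regions within 1 kb of a DN3 peak were left out. No total read count was used, and the part of depth was not tested.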
